A study of Drosophila melanogaster with 6 samples.

Results

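Ultraspiracle (USP) is a fly nuclear receptor, related to the retinoid X receptors of vertebrates, that pairs with the ecdysone receptor EcR, the sensor of the steroid hormone that drives moulting and metamorphosis. The pair binds DNA at ecdysone response elements, and pulses of the hormone around pupariation switch on a cascade of early genes and then late genes. A USP site can lie in a group of sites close together or stand by itself, and the regions that stood by themselves are described here. An isolated region was defined as one on the autosomal arms 2L, 3L or 3R whose centre lay more than 5000 bp from the centre of every other listed region of that arm. A stretch of 3L from 17.55 to 18.07 Mb, taken apart as the interval of the ecdysone early genes Eip74EF and Eip75B, was left out. By this rule 649 regions were isolated, out of 2191 on the 3 arms and 3791 in the whole list, while the other 1542 regions of the 3 arms had a neighbour. The left-out stretch held another 69 regions, 8 of them isolated.

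The regions come from chromatin immunoprecipitation with sequencing (ChIP-seq) of Drosophila melanogaster staged at 12 hours past the white prepupa. The labels give the strain as USP-GFP with the genotype PBac{y[+]-attP-3B}VK00033 and a transgene of the genomic coding region of usp. An antibody to GFP, raised in rabbits and polyclonal, gave 3 ChIP libraries, and 3 input libraries of genomic DNA have the same strain, genotype and stage. The labels' protocols name y; bw cn sp flies instead, and this is not settled here. The labels name no sex and no number of animals, and no GFP-free flies were used here as a control, so whether a listed region is bound by USP cannot be read from the list. The authors deposited 1 list for all libraries, on release 5 of the fly genome, with a start, an end and a score for each region. No value carries an error between replicates, and the depth of the libraries is unknown. The score is a positive number from the authors' peak caller, whose kind the file header does not give, and it is read here as a rank of regions within this list.

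The rule used the positions of the regions, so the number and the spacing of isolated regions are a description. A single call sets the position, the width and the score of a region, and the caller can list 1 stretch as several pieces, so no p-value is given for isolated regions against the others. Medians carry a 95% interval from order statistics and shares an exact binomial (Clopper-Pearson) 95% interval. Bounds of a difference combine the intervals of both medians and only describe the list. All of them treat regions as independent and leave out the spread between libraries.

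Isolated regions made up 29.6% of the regions (27.7 to 31.6%). The share was alike on the 3 arms, with 198 of 668 regions on 2L (29.6%), 204 of 726 on 3L (28.1%) and 247 of 797 on 3R (31.0%), and the intervals of the 3 shares overlapped. Over the listed length of each arm, isolated regions numbered 8.83 per Mb on 2L, 8.36 on 3L and 8.86 on 3R. The length of 3L includes the left-out stretch, whose 8 isolated regions are not counted, and this lowers the value of 3L. Together they covered 266 kb, while the regions with a neighbour covered 763 kb.

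The distance from an isolated region to the nearest other centre had a median of 16.8 kb, with quartiles of 8.89 and 36.8 kb. For regions with a neighbour the median was 1.03 kb, with quartiles of 0.653 and 1.81 kb. On the more distant side, isolated regions had a median of 63.8 kb to the next centre, and regions with a neighbour 9.23 kb. The limit of 5 kb fell on the falling side of a main mode near 1 kb and not in an empty gap. The isolated regions just above the limit lay 5.035, 5.116 and 5.136 kb from the nearest centre, with scores of 12.37, 13.89 and 18.02. The regions just below it lay 4.995, 4.995 and 4.992 kb away, with scores of 17.79, 22.86 and 16.84, the first 2 being each other's neighbours.

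**Figure D1:**
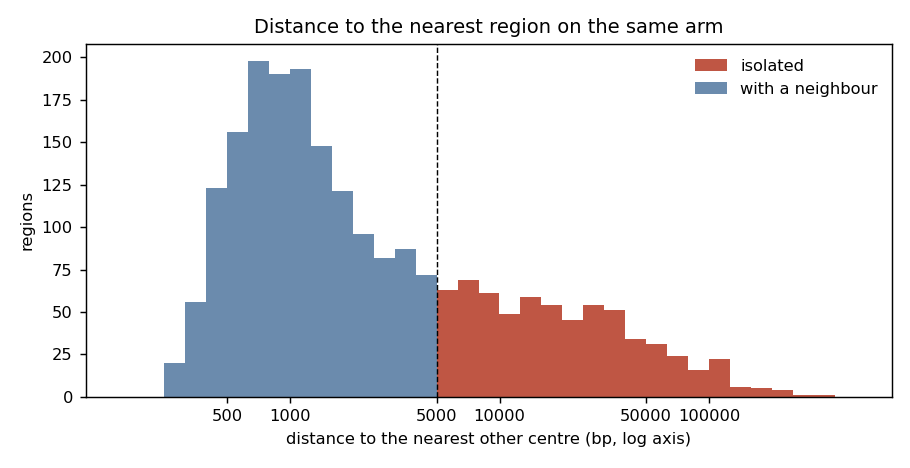
Number of regions (vertical axis) by the distance in bp from a region's centre to the nearest other centre on the same arm (log axis), for 649 isolated regions and 1542 regions with a neighbour. The dashed line marks the limit of 5000 bp, and the isolated regions spread beyond it up to 347 kb.

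Of the isolated regions, 194 had the nearest centre at 5 to 10 kb, 165 at 10 to 20 kb, 180 at 20 to 50 kb, 72 at 50 to 100 kb and 38 beyond 100 kb. Their median scores in these classes were 12.7, 12.6, 12.5, 11.4 and 12.1, and their median widths 334, 341, 327, 312 and 307 bp. Across the 649 isolated regions the distance and the score had a Spearman rho of 0.00 and a Pearson r of 0.01 on log10 values. Distance and width had a rho of -0.08 and an r of -0.08. The score of an isolated region thus had no visible relation to how far it stood from the next one. For 400 isolated regions (61.6%) the nearest listed region was itself isolated, and 237 had isolated regions on both sides. Isolated regions scored higher than their nearest listed region in 326 cases, lower in 317 and the same in 6. Isolated regions that were each other's nearest entered both counts unless tied, so the even split is partly built in.

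The isolated region farthest from any other was a 207 bp region of 2L at 15386109 to 15386315, 347 kb from the next centre on one side and 359 kb on the other, with a score of 10.77. The next was a 499 bp region of 3L at 22401146 to 22401644, at 273 and 333 kb, with a score of 15.89. Another region of 3L, at 23088531 to 23089077, had the next centre at 217 kb on one side and at 1369 kb on the other, across the widest stretch without a listed region that borders any isolated region. Its score was 9.63. The remaining 2 of the 5 farthest were regions of 3R at 23751849 to 23752118 and 24454958 to 24455300, with nearest centres at 219 and 216 kb and scores of 8.40 and 17.16. Among all 2191 regions, the scores of these 5 ranked between 556 and 2043. The highest number of isolated regions in a row was 16, over 901 kb of 3R from 20397982 to 21299201.

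Isolated regions occurred at all levels of the score. Their median score was 12.3 (11.9 to 12.7), with quartiles of 10.0 and 16.3, and scores ran from 6.50 to 110.03. Regions with a neighbour had a median of 12.9 (12.6 to 13.2), with quartiles of 10.2 and 17.6, and ran from 6.42 to 161.07. The difference of the medians, -0.59, had bounds of -1.31 and 0.15. By arm, the medians of isolated regions and of those with a neighbour were 11.8 and 12.9 on 2L, 12.7 and 12.6 on 3L, and 12.4 and 13.0 on 3R, so the direction on 3L was the other way.

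When all 2191 regions were divided into deciles by score, the isolated share lay between 23.3 and 38.8%. It was 25.4% in the lowest decile (20.0 to 31.4%), 38.8% in the second (32.0 to 45.9%) and 25.7% in the highest (20.0 to 32.0%). Neither the weakest nor the strongest regions were thus mostly isolated. Of the 100 highest-scoring regions 27 were isolated, and of the 10 highest 4 were. By width the share was between 28.6 and 37.0% in the 8 narrower deciles. It was 22.4% from 610 to 826 bp wide (17.0 to 28.5%), and 16.4% among the widest regions, from 828 bp up (11.8 to 22.0%). The isolated share was thus lower among wide regions than among narrow ones.

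**Figure D2:**
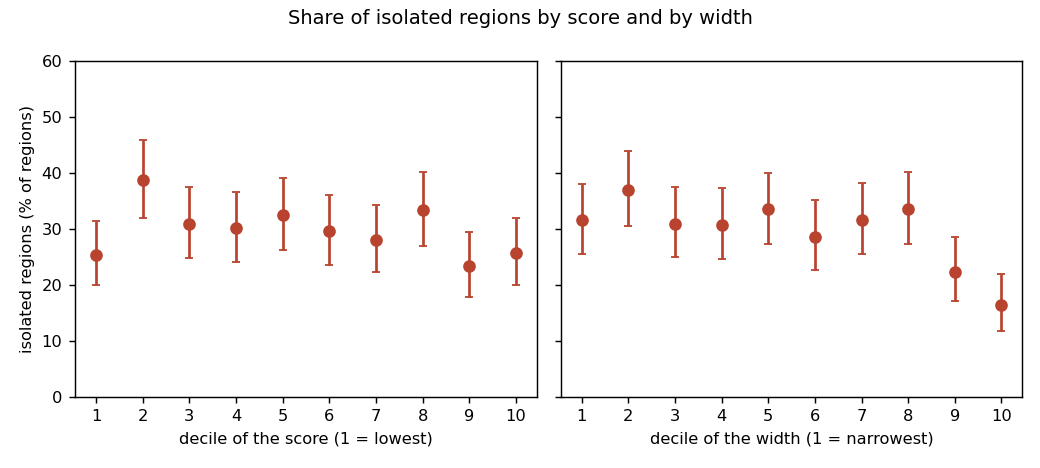
Isolated regions as a percentage of all regions of 2L, 3L and 3R (vertical axis), in deciles of the score (left) and of the width (right), with exact binomial 95% intervals as bars. The share lies between 23.3 and 38.8% over the score and is 16.4% in the widest decile.

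The median width of isolated regions was 327 bp (317 to 343), with quartiles of 248 and 482 bp, and widths ran from 200 to 2621 bp. Regions with a neighbour had a median of 359 bp (349 to 376), with quartiles of 258 and 584 bp, and ran from 200 to 6010 bp. The difference of the medians was -32 bp, with bounds of -59 and -6 bp. The bounds took in 0 when regions within 500 bp were merged first (-88 to 15 bp), without 3L (-62 to 4 bp) and without 3R (-60 to 14 bp). The median of isolated regions was the lower one on each of the 3 arms, at 342 and 348 bp on 2L, 332 and 371 bp on 3L and 319 and 362 bp on 3R, isolated regions given before those with a neighbour.

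The gap in width opened with rising score over 4 groups, but not steadily over deciles. In deciles 1, 5 and 8 of the score, isolated regions had the higher median width (246 against 245, 330 against 305.5 and 447 against 440 bp). In the lowest of 4 groups cut at the quartiles of the score the medians were 258 bp for isolated regions and 256 bp for regions with a neighbour. In the second group they were 283 and 303 bp, and in the third 344 bp (325 to 388) and 410 bp (379 to 443). In the highest group isolated regions had 539 bp (484 to 582) and regions with a neighbour 693 bp (651 to 733), at median scores of 22.2 and 23.0. Set side by side at like width, isolated regions had the higher median score in the groups below 544 bp, with overlapping intervals. From 200 to 255 bp the medians were 10.5 for isolated regions and 10.0 for the others, and from 256 to 350 bp 12.1 and 11.3. From 351 to 543 bp the median score of isolated regions was 14.2 (13.0 to 15.6), against 13.3 (12.7 to 13.9) for regions with a neighbour, though these intervals overlapped. From 544 bp up the medians were 18.4 (16.9 to 21.0) for isolated regions and 20.4 (19.5 to 21.2) for the others, at median widths of 658 and 787 bp. Width and score rose together in both classes, with a Spearman rho of 0.56 over 649 isolated regions and 0.67 over 1542 regions with a neighbour. Both measures come from the same reads, so the coefficients describe the calls and carry no test.

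**Figure D3:**
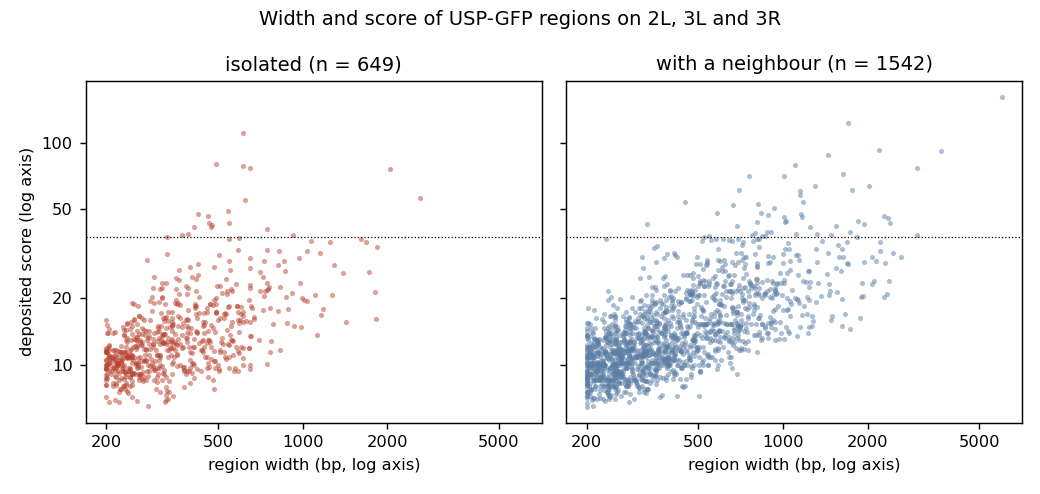
Width in bp (horizontal, log axis) and deposited score (vertical, log axis) of each region, isolated on the left and with a neighbour on the right. The dotted line is the score of the 20th isolated region, 37.47, and above it the isolated regions lie between 329 and 924 bp, apart from 2 wider ones.

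The highest-scoring isolated regions were wider than isolated regions in general but mostly narrower than regions with a neighbour of like score. The highest was a 615 bp region of 2L at 1301751 to 1302365, with a score of 110.03, the third highest of all 2191 regions. Its nearest listed neighbours lay 116 and 123 kb away. Next came 19495352 to 19495843 on 3R, 492 bp wide, whose score of 79.84 was the highest on that arm.

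Another 3 isolated regions of 2L followed at scores above 75. One at 6612300 to 6612914 was again 615 bp wide, with a score of 78.59. One at 7188327 to 7188975 was 649 bp wide, with a score of 76.77, and stood only 5.84 kb from its nearest neighbour. The last of them, at 3301637 to 3303678, was broad, with 2042 bp and a score of 75.72. The widest isolated region, 2621 bp at 21245600 to 21248220 on 3L, followed with a score of 56.09. No other isolated region scored above 55.

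The remaining 14 of the 20 highest isolated regions scored from 37.47 to 54.88 and were 329 to 924 bp wide. On 2L they were at 6078744 to 6079368 (54.88), at 13835225 to 13835648 (47.5) and at 10009980 to 10010456 (42.41). On 3R they were at 5358825 to 5359367 (49.17), at 19583657 to 19584122 (43.34) and at 27230210 to 27230682 (41.69). On 3L, 8 regions belonged to this set, the highest being at 19085607 to 19086066 (46.57), at 13931734 to 13932282 (43.47) and at 8714178 to 8714588 (41.62). The other 5 of 3L were at 22871461 to 22872208 (40.76), 20519336 to 20519725 (38.9), 19583505 to 19583877 (38.47), 15618445 to 15619368 (38.26) and 5132470 to 5132798 (37.47). The last of these bordered a stretch of 507 kb without a listed region.

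At scores of 37.47 and above, 20 isolated regions had a median width of 518 bp (460 to 625), and 52 regions with a neighbour had a median of 1148 bp (932 to 1447). The median scores of these sets were close, at 45.0 and 46.4. A width of at most 700 bp was found in 16 of the 20 isolated regions (80.0%, 56.3 to 94.3%) and in 7 of the 52 with a neighbour (13.5%, 5.59 to 25.8%). This limit of width and this comparison were chosen after the values had been seen. From a score of 30 up, the shares were 22 of 36 isolated regions (61.1%) and 27 of 103 with a neighbour (26.2%). The contrast was smaller from a score of 24.6 up (59.6 against 37.6%) and from 17.24 up (68.5 against 51.1%). Among regions with a neighbour, the highest of 2L was 6010 bp wide at 5289804 to 5295813 (161.07). That of 3L had 1704 bp at 24462044 to 24463747 (123.08) and that of 3R 3008 bp at 12060350 to 12063357 (76.5). These were wider than the median of the 52. Narrower ones included a region of 3R with 1005 bp (70.73) and one of 3L with 760 bp (70.9).

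**Figure D4:**
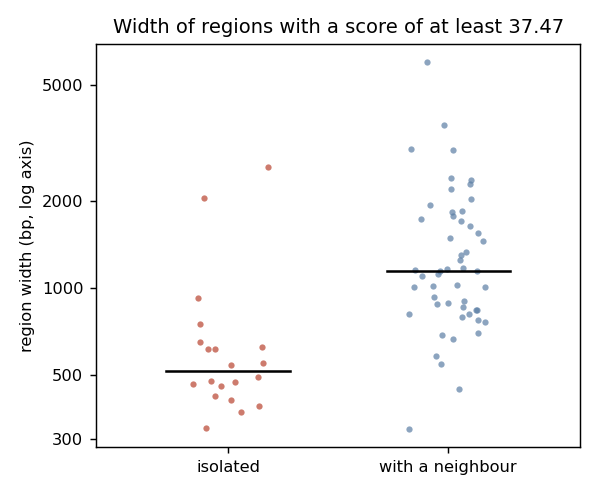
Width in bp (log axis) of the regions with a score of at least 37.47, 20 isolated on the left and 52 with a neighbour on the right, with 1 point for each region and a bar at the median. The isolated regions have a median of 518 bp and the others 1148 bp.

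The calls beside these high-scoring regions were described as well. Of the 52 high-scoring regions with a neighbour, 39 (75%) had another listed region with at most 500 bp between the edges. Over all regions with a neighbour this was so for 822 of 1542 (53.3%). The nearest listed region had a median score of 14.0 for these 52 and of 11.5 for the 20 isolated regions, against 12.6 over all regions. It scored below that overall median for 22 of the 52 and for 11 of the 20. For 1 of the 52 the nearest region scored 37.47 or more. This score is rank 72 among the 2191 regions, so a weaker nearest region is largely built in. When regions with at most 500 bp between edges were merged first, 35 isolated stretches of this score had a median width of 924 bp, and 35 with a neighbour had 1732 bp. A width of at most 700 bp was then found in 16 of the 35 isolated and in 2 of the 35 others. The 20 isolated regions had no region near enough to merge with and kept their widths. The other stretches of the isolated class came from regions that had a neighbour before merging, so the classes are not the same sets as before. Whether splitting of broad stretches by the caller has a part in the contrast was not tested.

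The isolated regions also included broad ones of moderate score. After the widest region of 3L and the broad one of 2L at 3301637, the widest were 1847 bp on 3L at 3059326 to 3061172 (33.67), 1826 bp on 2L at 2362657 to 2364482 (16.04) and 1816 bp on 3R at 17121888 to 17123703 (21.25). The other 5 of the 10 widest had 1389 to 1718 bp and scores of 15.57 to 36.58. One of them, of 1619 bp on 2L at 3338229 to 3339847 with a score of 36.58, was the nearest listed region to the broad one at 3301637, 36.4 kb away. At the low end, the weakest isolated regions scored 6.50 at 16575799 to 16576079 on 3L and 6.77 at both 20726511 to 20726834 on 3L and 3619508 to 3619729 on 3R. They were 222 to 324 bp wide.

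Along the arms, the counts of both classes are given as a description, since the rule keeps isolated centres apart and puts the others in groups of at least 2, which sets part of how evenly each class is spread. In 71 bins of 1 Mb, leaving out the last, partial bin of each arm and the bins that touch the left-out stretch, isolated regions numbered 8.83 ± 3.64 per bin (SD over bins), with a range of 1 to 18. Regions with a neighbour numbered 20.8 ± 12.9 per bin, with a range of 0 to 55. The variance was 1.5 times the mean for isolated regions and 7.99 times for the others. No bin was without an isolated region, and 58 of the 71 bins held 5 to 15 of them, while 22 bins held 5 to 15 regions with a neighbour.

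Bins rich in one class tended only loosely to be rich in the other, with a Pearson r of 0.29 and a Spearman rho of 0.33 over 71 bins of the same list. The isolated share in bins with at least 10 regions ranged widely, with a median of 30%. It was lowest from 13000001 to 14000000 of 3R, with 1 of 15 regions (6.67%, 0.169 to 31.9%). It was highest from 18000001 to 19000000 of 3R, with 13 of 15 (86.7%, 59.5 to 98.3%). These bins were picked as the extremes of 67, and their intervals do not allow for the picking. The interval of the lowest bin includes the share over all regions, 29.6%.

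**Figure D5:**
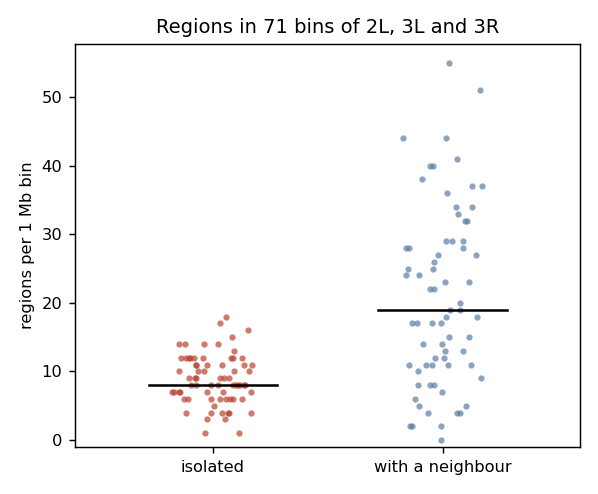
Number of regions in each of 71 bins of 1 Mb on 2L, 3L and 3R (vertical axis), isolated on the left and with a neighbour on the right, with 1 point for each bin and a bar at the median. Isolated regions range from 1 to 18 per bin and the others from 0 to 55.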

How the data were processed

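Per the labels, 3 ChIP and 3 input libraries were made from prepupae kept at 25 °C and cross-linked in 1.8% formaldehyde for 15 min. MACS called the regions on release 5 of FlyBase, per the file headers. The submitters' processing notes name BWA, MACS2, the build BDGP5 and CASAVA in the versions 1.7.0.2 and 1.7.0.3. Neither the calling threshold nor the pooling of libraries is stated in those sources. The deposited score has no stated kind and is 1 value for all libraries. Other deposited columns, the start and end of each region, are positions in bp. Starts were read as counting from 0, since 1 region starts at 0, and 1 was added to printed starts.

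Neighbours were sought among all listed regions of an arm, and 2R was not analysed here. The named regions are the 20 highest-scoring, 10 widest, 5 most distant and 3 lowest-scoring isolated regions, 3 on each side of the limit, and, for comparison, high-scoring regions with a neighbour. The members and lists were chosen with earlier results of these data known. No gene, motif or sequence was attached, since the regions are on release 5 and the gene table at hand is of release 6. Alternatives varied the limit, the measure of distance, merging, the score limit, the left-out stretch, the arms and their ends. The code, in Python 3.11.15 with pandas 2.3.3, NumPy 2.4.6 and SciPy 1.17.1, was tested on simulated lists.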

Additional observations from a re-analysis of the deposited data

How the results depend on the processing

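Of 98 alternative values, 74 stayed within the interval of the value reported (counts within 1.5 times). Only differences can change sign, and none of those in width or score did. Isolated regions had the lower median width and score in 12 of 12 settings each, all drawn from the same list. The bounds of the width difference took in 0 after merging (-88 to 15 bp), without 3L (-62 to 4 bp) and without 3R (-60 to 14 bp). Those of the score difference took in 0 in every setting, the main one included (-1.31 to 0.15). The other 24 values moved: another limit, merging or a score limit changes by construction which regions have a neighbour, and without 3R fewer regions enter. Isolated regions numbered 986 (45.0%) beyond 2 kb, 455 (20.8%) beyond 10 kb and 290 (13.2%) beyond 20 kb, and 402 without 3R. They made up 46.5% after merging within 500 bp, 45.1% among scores from the median up and 60.3% (329 regions) from the upper quartile up. Their share in the highest decile of scores was 40.1, 19.8 and 13.1% at 2, 10 and 20 kb, 49.7% after merging, and 44.0 and 63.6% from the median and the upper quartile up. Their median width was 379 bp after merging and 456 and 591 bp under these score limits, their median score 13.0, 16.9 and 22.6, and the difference in width from regions with a neighbour -115 and -147 bp under the score limits. The width difference at scores of 37.47 and above (-630 bp), a comparison chosen after seeing the data, ranged from -354 to -808 bp over the same settings. Its bounds included 0 beyond 2 and 20 kb, after merging and from the upper quartile up. No paired analysis was possible because each region has 1 score for all libraries, which also leaves no replicate to take out. Depth is unknown, so isolation here means isolation among the listed regions only.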

Other observations

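The highest and the third highest isolated regions, both on 2L, had the same width of 615 bp, at scores of 110.03 and 78.59. In the whole list 5 regions had this width. The others were a region of X at 22422249 to 22422863 with a score of 106.4, and isolated regions of 2L at 4821002 to 4821616 (17.16) and of 3L at 21426283 to 21426897 (16.57). Among the 97 regions of 2L, 3L, 3R, X and 4 that scored 37.47 or more, 94 different widths occurred, and only 615 bp occurred 3 times. The list held 67 regions from 600 to 630 bp wide. The coincidence was noticed after the values had been seen and was not tested, and no sequence of these regions was compared.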
